A study of Caenorhabditis elegans with 2 samples.

Results

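Autosomal intergenic peaks of tagged DUXL-1 were candidate regions of high signal between genes, outside the promoter windows of protein-coding genes. They were chosen by signal and by place from the 30000 candidate regions that the authors called on both replicates together in build ce11. A region was kept when it lay on an autosome, had a signal of 50 or more in the units of the authors' peak caller, and had its summit outside every protein-coding gene. The summit also had to lie outside the window from 1000 bp upstream to 200 bp downstream of every protein-coding transcript start, and more than 100 bp from any tRNA, snoRNA or snRNA gene, in the Ensembl annotation of WBcel235. The rule screens protein-coding starts only, so a summit may lie near the start of a pseudogene or non-coding gene. By the rule, the 26 summits under 1000 bp from a protein-coding start lie downstream of it, beyond the end of the gene. This left 391 regions of 30000, out of 3414 candidates with such a signal and 2759 of those on autosomes. The data came from anti-GFP chromatin immunoprecipitation with sequencing, in 2 biological replicates of whole hermaphrodite larvae at the L4 stage, the last before adulthood. All worms were of 1 strain, OP470, which carries the mutation unc-119(tm4063) on chromosome III and the integrated transgene wgIs470, and the transgene expresses DUXL-1 with GFP and FLAG at its C-terminal end. There is no second genotype or treatment to compare, and whole animals mix all tissues. Signal at a region need not come from bound DUXL-1, since the control library is not analysed here. The lists hold no read counts, so the depth is unknown.

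DUXL-1 is named as a homeodomain protein, and homeodomains of many animals recognise short sites built on the letters TAAT. In the compact genome of C. elegans most regulatory sites lie close to gene starts, while distant intergenic regions can hold enhancers, non-coding RNA genes and repeats. Regions that give signal with many unrelated tagged factors are also known in this species, and whether these peaks are among them was not tested.

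Most sequences around the strongest summits carried the word GAGAG, in several copies or in 1. Of the 10 strongest peaks on chromosomes II to V, 8 held GAGAG or CTGCGTC (either strand) and 2 held neither. Windows of 121 bases centred on the summit are shown on the plus strand of WBcel235 (RefSeq) for 7 of these 10, because they contrast peaks dense in these words with peaks that lack them. The 3 not shown held 2, 1 and 1 matches to GAGAG within 50 bp of the summit, and the median was 1.5 over the 20 strongest peaks and 0 over all 391. The longer word GAGAGAG, on either strand, stood in 4 of the 10. Capitals mark every match to GAGAG or CTGCGTC or their reverse complements, CTCTC and GACGCAG.
chrV:18723764-18723884: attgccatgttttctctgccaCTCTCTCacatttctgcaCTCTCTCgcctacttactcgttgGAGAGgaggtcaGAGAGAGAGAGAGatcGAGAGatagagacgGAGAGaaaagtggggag
chrIV:15570909-15571029: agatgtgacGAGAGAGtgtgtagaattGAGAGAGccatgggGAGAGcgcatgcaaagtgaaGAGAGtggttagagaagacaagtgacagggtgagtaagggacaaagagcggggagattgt
chrV:14055177-14055297: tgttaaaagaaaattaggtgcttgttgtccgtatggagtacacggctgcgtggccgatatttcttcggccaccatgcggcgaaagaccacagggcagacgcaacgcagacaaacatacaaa
chrII:2973992-2974112: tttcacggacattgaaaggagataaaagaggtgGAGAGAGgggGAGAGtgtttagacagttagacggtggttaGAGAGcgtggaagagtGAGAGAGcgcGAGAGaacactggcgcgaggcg
chrIV:8597616-8597736: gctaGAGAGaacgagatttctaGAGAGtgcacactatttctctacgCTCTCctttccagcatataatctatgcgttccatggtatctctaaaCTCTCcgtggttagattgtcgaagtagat
chrIV:2219605-2219725: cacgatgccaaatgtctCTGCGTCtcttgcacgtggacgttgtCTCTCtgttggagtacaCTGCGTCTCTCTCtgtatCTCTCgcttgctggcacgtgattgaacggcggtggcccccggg
chrV:5667468-5667588: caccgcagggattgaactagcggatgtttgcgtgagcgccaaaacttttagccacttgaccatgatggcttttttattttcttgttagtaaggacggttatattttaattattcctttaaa
The first and strongest, with 12 overlapping GAGAG or CTCTC matches within 50 bp of its summit, and the second, with 5, had no protein-coding start within 2000 bp. The third, at 14055237 of chromosome V, and the last, at 5667528, had none of either word. The peak at 2219665 of chromosome IV held both words, and CACGTG as well.

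The strongest of these peaks stood far above the others in both replicates. It spanned chrV:18723630-18723982 with a summit at 18723824 and a signal of 1923 in the pooled list, 962 in replicate 1 and 971 in replicate 2. Its rank was 10 among all candidates of the pooled list. The next autosomal intergenic peak had 598. The summit lay 53 bp from the annotated start of the pseudogene WBGene00045366, which runs on the minus strand away from it. It lay 924 bp from the non-coding RNA gene Y17D7C.9 and 1535 bp from linc-25, a long intergenic non-coding RNA gene. The nearest protein-coding genes were Y17D7C.2, whose start lay 3837 bp away, and asp-19, of the aspartyl protease family, 4879 bp away. None of the words of 36 bases around the summit occurred elsewhere in the genome. A weaker peak, with a signal of 59.7 (36.03 and 36.07 in replicates 1 and 2), lay 1014 bp away inside the same pseudogene, and the next intergenic peak on the other side, with 248, lay 14022 bp away. Nearer candidates on the pseudogene's side had signals of 78.5, at a promoter 3460 bp away, and 62.0, in intergenic sequence 11525 bp away. Candidates inside genes on that side had 61.5, 12826 bp away, and 143, 13683 bp away.

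The second to sixth peaks lay beside a mixed set of genes, and the third was the least even between replicates. The second, at chrIV:15570824-15571159, had a signal of 598 (301 and 296), in a gap between the divergent genes Y105C5A.1 (6542 bp away) and pqn-76 (8117 bp), a gene named for a glutamine and asparagine rich domain. This gap lies among piRNA genes, which encode small germline RNAs: 73 of them lay within 5000 bp, the nearest 21ur-8889 at 266 bp. The third, at chrV:14055140-14055325, had a signal of 386 (155 and 230.4) and lay 2603 bp upstream of F58D12.3. The fourth, at chrI:16919-17091, had a signal of 278 (134 and 139.7) and lay between the ends of 2 convergent genes, 198 bp beyond nlp-40, which encodes a neuropeptide of the defecation rhythm, and 449 bp beyond rcor-1, a relative of the CoREST corepressors. The fifth, at chrII:3303688-3303833, had a signal of 251 (113 and 127) between btb-22, named for its BTB domain, and F39E9.6. The sixth, at chrV:18737763-18737936, had a signal of 248 (128 and 110.0) and lay 3365 bp upstream of scl-20, which encodes a secreted protein of the SCP family.

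The seventh to twelfth peaks had unlike neighbours, from a nuclear hormone receptor gene to that of calmodulin. The peak with its summit at 2974052 of chromosome II had a signal of 235.2 (118 and 116) and lay 2587 bp upstream of nhr-88, a nuclear hormone receptor gene. The peak at 1151468 of chromosome V had 220.2 (96.55 and 137), inside linc-128 and 4803 bp upstream of cmd-1, the calmodulin gene. The peak at 8597676 of chromosome IV had 214 (88.7 and 116) between the convergent genes clec-181, of the C-type lectin family, and Y59H11AR.4. The peak at 2219665 of chromosome IV had 195 (91.3 and 114.7) between T04C4.3 and fnip-2. The peak at 2639821 of chromosome I had 186 (97.45 and 84.5) between F40E3.3 and mage-1, the worm's MAGE gene, and 48.8% of its 36-base words occurred elsewhere in the genome, just under the limit for repeated sequence used here. The peak at 5667528 of chromosome V had 185.5 (109 and 61.0) and lay 1442 bp upstream of C14C11.7.

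The other 8 of the 20 strongest peaks had signals from 156 to 166, and their neighbours included both genes of the oxygen-sensing pair egl-9 and hif-1. egl-9 encodes the prolyl hydroxylase that marks the transcription factor HIF-1 for degradation. The peak at chrV:10466632-10466911 had a signal of 164 (61.4 and 82.05) and lay 1745 bp upstream of egl-9, inside the non-coding RNA genes F22E12.9 and F22E12.10. The peak at chrV:20778245-20778524 had 162 (97.3 and 64.6) and lay 2022 bp upstream of hif-1, between it and the divergent gene F38A6.4. Both held CTGCGTC and GAGAG within 50 bp of the summit, as did the peak upstream of pptr-1. Any link between egl-9 and hif-1 in these data was not tested. The other neighbours were pat-4, the integrin-linked kinase of muscle attachments, with mrpl-40, a mitochondrial ribosomal protein gene (166), mak-1 and atf-2, a bZIP factor gene (165), tcc-1 and csn-1, a subunit of the COP9 signalosome (163), pptr-1, a regulatory subunit of protein phosphatase 2A (156.5), math-9 and C16C4.1 (156), and sup-26, an RNA-binding protein gene, with R10E4.3 (156). The peak beside csn-1 had 49.2 in replicate 1 and 134 in replicate 2, the most uneven of these 8 by ratio. All 20 were found among the strongest candidates of both replicates, and 9 of the 20 had the higher signal in replicate 1.

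Signal fell steeply below these peaks, and the replicates shared the strong ones far more than the weak ones. The median signal was 69.6, with quartiles of 56.4 and 92.1 and a range from 50.04 to 1923. Of the 391 peaks, 225 (57.5%) were in the list the authors thresholded on the irreproducible discovery rate, against 56.5% of all 2759 autosomal candidates with a signal of 50 or more, and 166 were not. This is a limit on the pooled signal, since the list equals the 1980 candidates of highest signal and ends at 65.04, so it says no more than the signal does. Finding a peak in a replicate meant an overlap of 1 bp or more with one of the 3414 candidates of highest signal there. Of the 391, 267 (68.3%) were found in replicate 1, 232 (59.3%) in replicate 2, 168 (43.0%, 95% Wilson interval 38.2 to 47.9) in both and 60 in neither, and 42.4% of all 2759 autosomal candidates with such a signal were found in both. Both shares lay near those of the autosomal background. Intervals here cover counting over regions only.

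Between signals of 50 and 65, 14 of 166 peaks (8.43%) were found in both replicates. From 65 to 100 the number was 78 of 146 (53.4%), from 100 to 150 it was 56 of 59 (94.9%), and at 150 or more it was 20 of 20. The pooled signal that defines these classes is made of both replicates, so the rise is a description. Some candidate of any signal was overlapped in both replicates by 356 peaks (91.1%). Over these 356 the Spearman correlation of replicate 1 with replicate 2 was 0.361, across peaks that share the same 2 libraries. Replicate 1 had more than 2 times the signal of replicate 2 in 61 peaks, and replicate 2 more than 2 times that of replicate 1 in 30. The summits of the 2 replicates lay a median of 48 bp apart and within 50 bp in 191 peaks (53.7%), which limits how sharply a word can be placed.

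**Figure D1:**
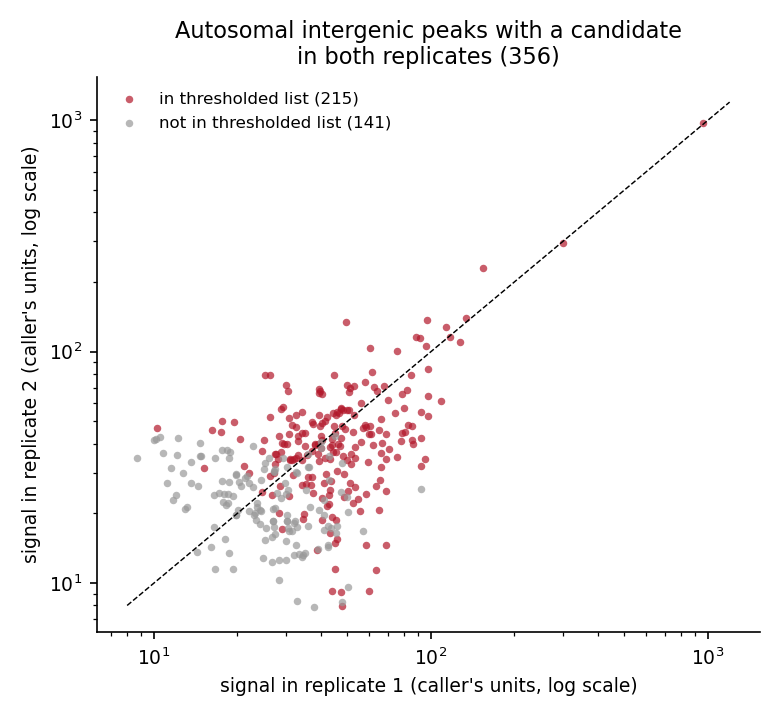
Signal of each autosomal intergenic peak in replicate 1 (horizontal axis) and replicate 2 (vertical axis), in the caller's units on log scales, for the 356 peaks with a candidate in both. Red points are in the thresholded list, grey points are not, and the dashed line marks equal signal. The strongest peak lies at 962 and 971, close to the line, while peaks with signals under about 100 scatter widely around it.

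Regions were also chosen in 1 replicate and looked up in the other, without the pooled list. Of 439 autosomal intergenic regions among the 3414 strongest candidates of replicate 1, 184 (41.9%, interval 37.4 to 46.6) were among those of replicate 2. Of 398 chosen in replicate 2, 183 (46.0%, 41.2 to 50.9) were among those of replicate 1. Autosomal promoter regions were found more often in both directions, at 50.6% (638 of 1262) and 52.4% (640 of 1222). Autosomal gene bodies were found less often, at 26.3% (203 of 773) and 23.0% (207 of 901). The intergenic shares thus lay between those of promoters and of gene bodies, next to 44.9% and 44.7% for all autosomal regions. Median signals followed the same order, at 38.7, 41.6 and 35.2 in replicate 1 for intergenic, promoter and gene body regions, and their part in these shares was not tested.

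Of the 14 words listed for the search, GAGAG had the largest excess at the summits in percentage points. It lay within 50 bp of the summit in 163 of 391 peaks (41.7%), against 13.0% and 15.9% of equally long windows centred 300 bp away on the left and right. In 3399 weaker candidates, with a signal under 50 in the same kind of place, the share was 21.7%. It was 34.3% in 1319 autosomal promoter peaks, 28.0% in 771 gene body peaks and 28.2% in 163 intergenic peaks of chromosome X, all with a signal of 50 or more. The share rose with signal, from 33.7% (56 of 166) between 50 and 65 to 42.5% (62 of 146), 49.2% (29 of 59) and 80.0% (16 of 20) in the classes above. Median GC within 50 bp of the summit was 42.6%, 46.5%, 44.6% and 49.5% over the same classes, not a steady rise. It was 49.5% in peaks with GAGAG and 41.6% in those without, and its part in these shares was not tested.

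**Figure D2:**
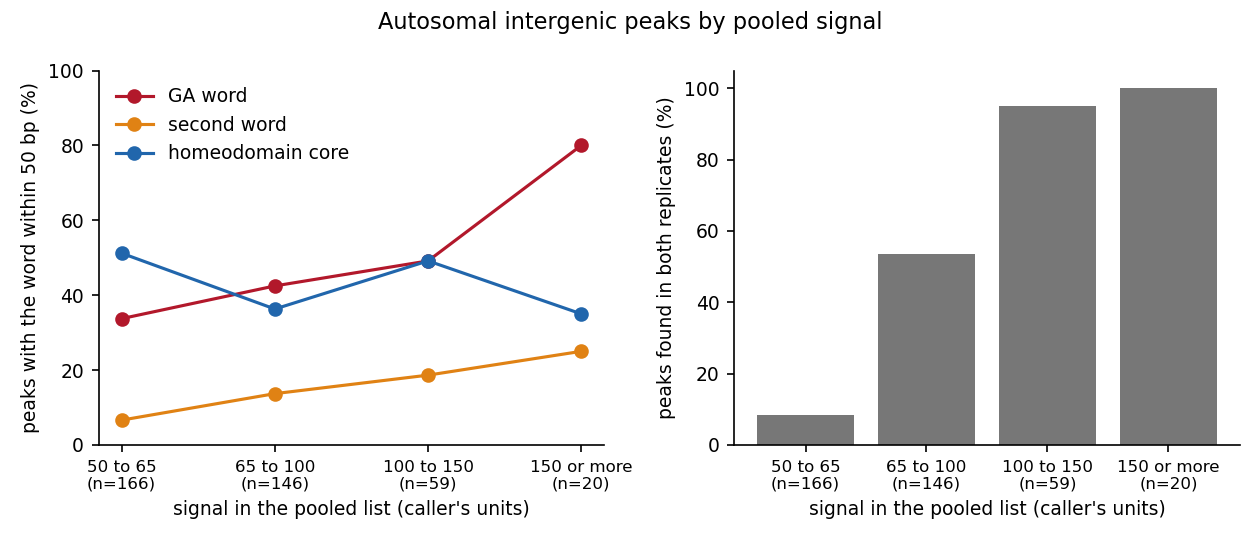
Left, percent of autosomal intergenic peaks with GAGAG (the GA word, red), the second word CTGCGTC (orange) or the homeodomain core TAAT (blue), on either strand, within 50 bp of the summit, by pooled signal in the caller's units. Right, percent found among the strongest candidates of both replicates in the same 4 classes of 166, 146, 59 and 20 peaks. GAGAG reaches 80.0% and sharing between replicates 100% in the strongest class.

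A free count of all words of 7 bases gave a second word, CTGCGTC. It was picked after the values were seen, for its excess over the flanks, so its excess is a description. The words with the largest excess were CTCTCTC, in 62 peaks against 8 and 13 in the flanks, and AGAGACG, in 51 against 4 and 4. Overlapping pieces of 1 longer word followed, among them ACGCAGA (50 peaks against 6 and 6) and CTGCGTC (47 peaks, or 12.02%, against 3 and 6). AGAGACG overlaps this longer word too, so these counts are not independent of each other. Within 100 bp of the summits there were 79 matches to CTGCGTC in 64 peaks, and the base after it was T in 91.1% of matches and the next C in 87.3%, while the base before it was T in 81.0%. The resulting word TCTGCGTCTC lay within 50 bp of 34 summits (8.70%), against 3 and 2 windows in the flanks. Its share was 6.98% in autosomal promoter peaks, 2.34% in gene body peaks, 2.45% in intergenic peaks of chromosome X and lower still in the weaker intergenic candidates (51 of 3399).

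CTGCGTC and GAGAG often occurred together. Both lay within 50 bp of the summit in 38 peaks, GAGAG alone in 125, CTGCGTC alone in 9 and neither in 219. TCTGCGTCTC ends in CTC, so a following TC makes a match to CTCTC, and the 2 counts are not independent of each other. The share with CTGCGTC also rose with signal, from 6.63% to 13.7%, 18.6% and then 5 of 20 peaks over the 4 classes. The strongest peaks with it were those beside nlp-40 (278), fnip-2 (195), egl-9 (164), hif-1 (162) and pptr-1 (156.5). Intergenic sequence that the rule allows held 886 copies of TCTGCGTCTC on autosomes, and 36 of them (4.06%) lay within 50 bp of one of the 391 summits, in windows that cover 0.201% of that sequence. For GAGAG it was 442 of 37404 matches (1.18%), so most copies of either word lay away from these summits.

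**Figure D3:**
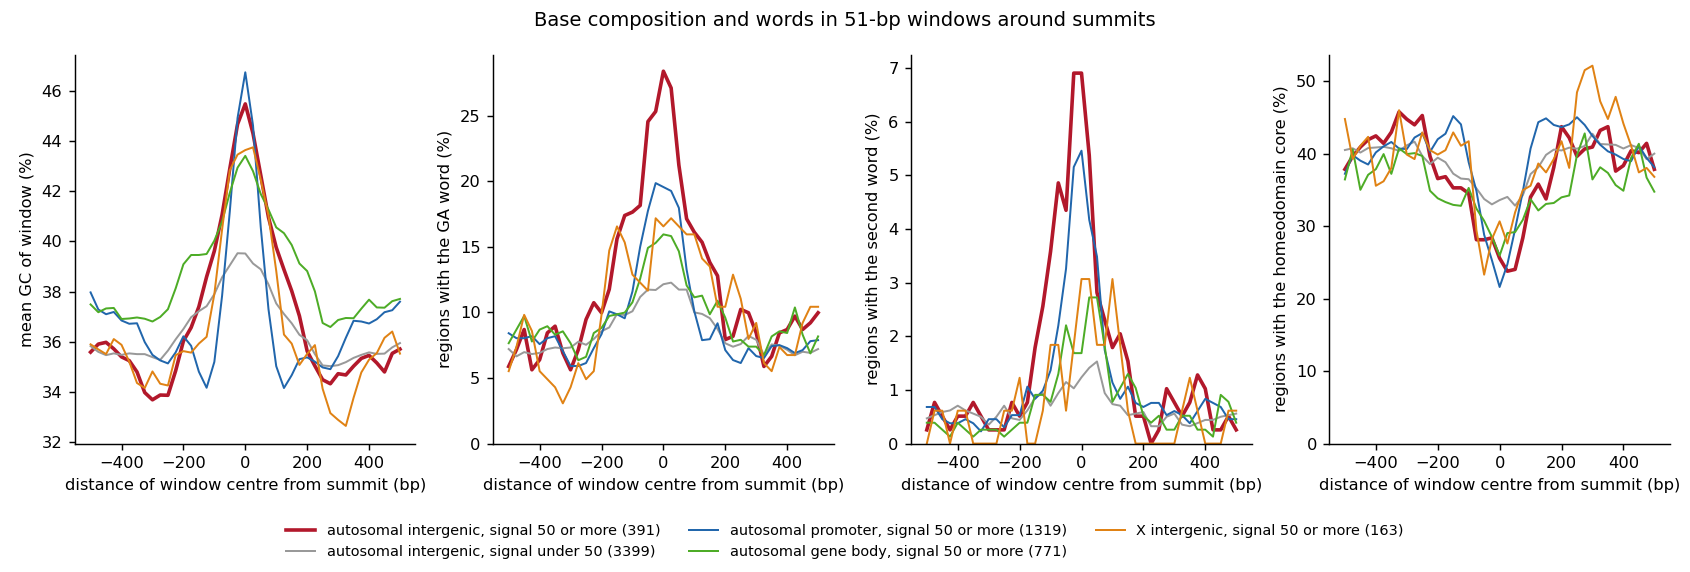
From left to right, mean GC and the percent of regions with GAGAG (the GA word), the second word CTGCGTC and the homeodomain core TAAT, each on either strand, in 51-bp windows, by distance of the window centre from the summit in bp. The red line is the 391 autosomal intergenic peaks, and the other lines are weaker candidates in the same kind of place (grey), autosomal promoter peaks (blue), autosomal gene body peaks (green) and intergenic peaks of X (orange). In the red line GC reaches 45.5%, GAGAG 28.4% and CTGCGTC 6.91% at the summit, while TAAT drops to 25.6% there.

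TAAT, the core of homeodomain sites, was less frequent at the summits than beside them, here and in every comparison set. TAAT lay within 50 bp of 174 summits (44.5%), against 68.5% and 64.5% in the flanks, and TAATTA, a palindrome bound by many homeodomains, at 8 summits (2.05%), against 5.88% and 6.91%. TAATCA lay at 21 summits (5.37%, against 6.91% and 4.60%), TAATCT at 12 (3.07%, against 6.39% and 5.12%) and TAATCC at 8 (2.05%, against 3.58% and 4.35%). GC rose from 33.7% in windows 300 bp to the left to 45.5% at the summit, and peaks with TAAT had a median GC of 40.6%, those without 48.5%. A run of 6 A was at 23.0%, against 45.8% and 48.3% in the flanks, and TTTTCC at 14.8%, against 22.5% and 24.0%. In the comparison sets TAAT lay at 44.3% of promoter, 47.7% of gene body and 47.85% of X intergenic summits. In weaker candidates it lay at 55.1%, and flanks of these sets held 62.5% to 71.2%. The part of base composition in these shares was not tested, and the letters of a word do not show which protein was bound.

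Of the other words listed, CACGTG and GCGCGC were more frequent at summits than in the flanks. CACGTG, an E box of the kind bound by basic helix-loop-helix proteins, lay within 50 bp of 29 summits (7.42%), against 2.30% in each flank. The share was 3.06% in weaker intergenic candidates, 3.79% at promoters, 4.02% in gene bodies and 2.45% in intergenic peaks of X. GCGCGC lay at 24 summits (6.14%), against 0.256% and 0.767% in the flanks. The share was higher at promoter peaks (8.64%) and lower in intergenic peaks of X (3.68%), gene bodies (2.08%) and weaker candidates (1.32%). Peaks with GCGCGC had a median GC of 53.5%. GATAA, the core site of GATA factors, was at 23.8%, near its flanks of 22.0% and 18.7%, and CAGCTG was at 3.07%, near 2.81% and 2.30%. Among the 219 peaks with neither GAGAG nor CTGCGTC, the 7-base word of largest excess was ATCAAAC, in 15 peaks against 4 and 6 in the flanks.

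Repeats, tRNA promoter elements and telomere units were rare. A peak counted as repeated when at least 50% of the 36-base words starting within 100 bp of its summit occurred more than once in the genome. Only 5 of 391 peaks (1.28%) met this, against 1.00% of weaker candidates in the same kind of place. Other sets with a signal of 50 or more had lower shares. These were 0.455% at autosomal promoter peaks (6 of 1319), 0.519% in gene body peaks (4 of 771) and 0 of 163 intergenic peaks of X. Among the autosomal intergenic peaks the share was 2.28% without replicate 2, and 2.53% with a signal limit of 100. The strongest of the 5 lay between K08F11.1 (2708 bp away) and fbxb-78 (9537 bp away) on chromosome IV, with a signal of 122 (60.5 and 48.0) and a median of 5 copies. The most repeated lay between ivd-1 and snpn-1 on the same chromosome, with a median of 47 copies and a signal of 77.7. The letters GTTCGANNC, the B box inside tRNA genes, occurred at 1 summit (0.256%), against 2 windows in each flank. The share was 0.94% in weaker candidates, 0.61% at promoter peaks, 0.65% in gene bodies and 1.84% in intergenic peaks of X. The rule leaves out summits within 100 bp of tRNA genes, so a low number was partly set in advance. TTAGGC, the telomere repeat unit, lay at 7 summits (1.79%), less than in the flanks (3.07% and 2.30%). The strongest peak of each kind is shown, on the plus strand in the same window, with capitals marking GAGAG or CTCTC in the first, the B box letters in the second and the telomere unit in the last, the latter pair as reverse complements.
chrIV:4727961-4728081: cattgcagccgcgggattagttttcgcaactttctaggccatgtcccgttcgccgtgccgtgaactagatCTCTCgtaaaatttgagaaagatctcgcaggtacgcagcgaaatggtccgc
chrIII:13724598-13724718: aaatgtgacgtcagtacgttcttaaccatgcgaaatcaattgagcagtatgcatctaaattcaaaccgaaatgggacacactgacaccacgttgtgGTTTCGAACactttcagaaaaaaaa
chrIV:427390-427510: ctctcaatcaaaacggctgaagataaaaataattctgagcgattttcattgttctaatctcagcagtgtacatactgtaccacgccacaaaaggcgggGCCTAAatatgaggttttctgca
These 3 had signals of 122, 95.8 and 82.1.

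Most summits lay outside every annotated gene. The rule had already removed those in protein-coding genes or near tRNA, snoRNA and snRNA genes, so a high share was partly set in advance. No annotated gene of any kind covered the summit of 354 peaks (90.5%), against 83.0% of the weaker candidates in the same kind of place. The other 37 summits lay in genes for ncRNA (15), pseudogenes (13), lincRNA (7), miRNA (1) and piRNA (1). Summits in pseudogenes made up 3.33% of the peaks and 12.3% of the weaker candidates, the class with the largest gap between them. After linc-128, the lincRNA genes with the strongest peaks were linc-8 (signal 123, with 52.9 and 71.0 in the replicates), linc-91 (76.25, with 63.4 and 11.4) and linc-129 (70.2, with 10.3 and 46.6). The last 2 were thus uneven between replicates, on opposite sides.

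Among ncRNA genes, after the pair beside egl-9, the strongest were F33A8.11 (105.1, with 70.9 and 38.2), which lies between cey-1, a cold shock domain protein gene, and the collagen gene col-83, then Y46E12BL.9 (98.25) and srpr-2.1 (96.7). The pseudogenes with the strongest peaks were WBGene00019095 beside cysl-4 (114, with 30.1 and 71.5), WBGene00005825 beside srw-71, which held 2 peaks (81.35 and 81.2), and WBGene00012975 between hmt-1 and sup-35 (75.5). The miRNA gene was mir-51, between alh-3 and hrg-5, with 71.9 (43.3 and 34.3). The piRNA gene was 21ur-11585, with 62.7 and no candidate in replicate 2. Within 1000 bp, 81 peaks (20.7%) had an ncRNA gene, against 18.3% of weaker candidates, and 15 (3.84%) a piRNA gene, against 4.18%. As a ratio, the difference was larger for lincRNA genes (16 peaks, 4.09%, against 1.82%) and snoRNA genes (11 peaks, 2.81%, against 0.971%). It was also larger for miRNA genes (9 peaks, 2.30%, against 1.32%) and, in the other direction, for pseudogenes (41 peaks, 10.5%, against 18.4%).

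The peaks lay somewhat nearer to gene starts than weaker candidates in the same kind of place, and more often between convergent genes. From summit to nearest protein-coding start the median was 2064 bp, against 2379 bp in weaker candidates and 2476 bp in intergenic peaks of X, and the range was 339 bp (dph-3) to 12783 bp. A start lay within 2000 bp of 188 summits (48.1%, against 40.0% of weaker candidates) and within 5000 bp of 354 (90.5%, against 85.2%). The gap between the flanking protein-coding genes had a median of 5272 bp, against 6089 bp. Gaps between convergent genes, where both ends face the peak, held 88 peaks (22.5%, against 17.7%), divergent gaps 91 (23.3%, against 25.8%) and tandem gaps 212 (54.2%, against 56.5%). In intergenic peaks of X the convergent share was higher still, at 28.8%. The nearest start was downstream of the summit in its own direction, so that the peak lay upstream of the gene, for 208 peaks (53.2%, against 62.6%). These are descriptions over regions, which are not replicates.

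Per Mb of allowed sequence the peaks were most frequent on chromosome III and least on chromosome IV. Allowed sequence is what passes the place rule, and per Mb of it there were 34.8 on III, 22.4 on II, 20.6 on I, 17.2 on V and 13.4 on IV, from 97, 80, 58, 89 and 67 peaks, against 20.2 over all autosomes and 28.7 on X. Allowed sequence makes up 23.4% of the autosomes. Of all candidates with a signal of 50 or more, these intergenic peaks were 16.5% on III, 14.1% on IV and 11.4% on I, against 14.2% over all autosomes. Chromosome IV had 474 candidates with such a signal in any place, the fewest of the autosomes. It also had the largest allowed share of them, at 28.6% of its length. The part of either in the low number per Mb there was not tested. The share found in both replicates was 39.2% on III, 49.3% on IV and 34.5% on I.

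**Figure D4:**
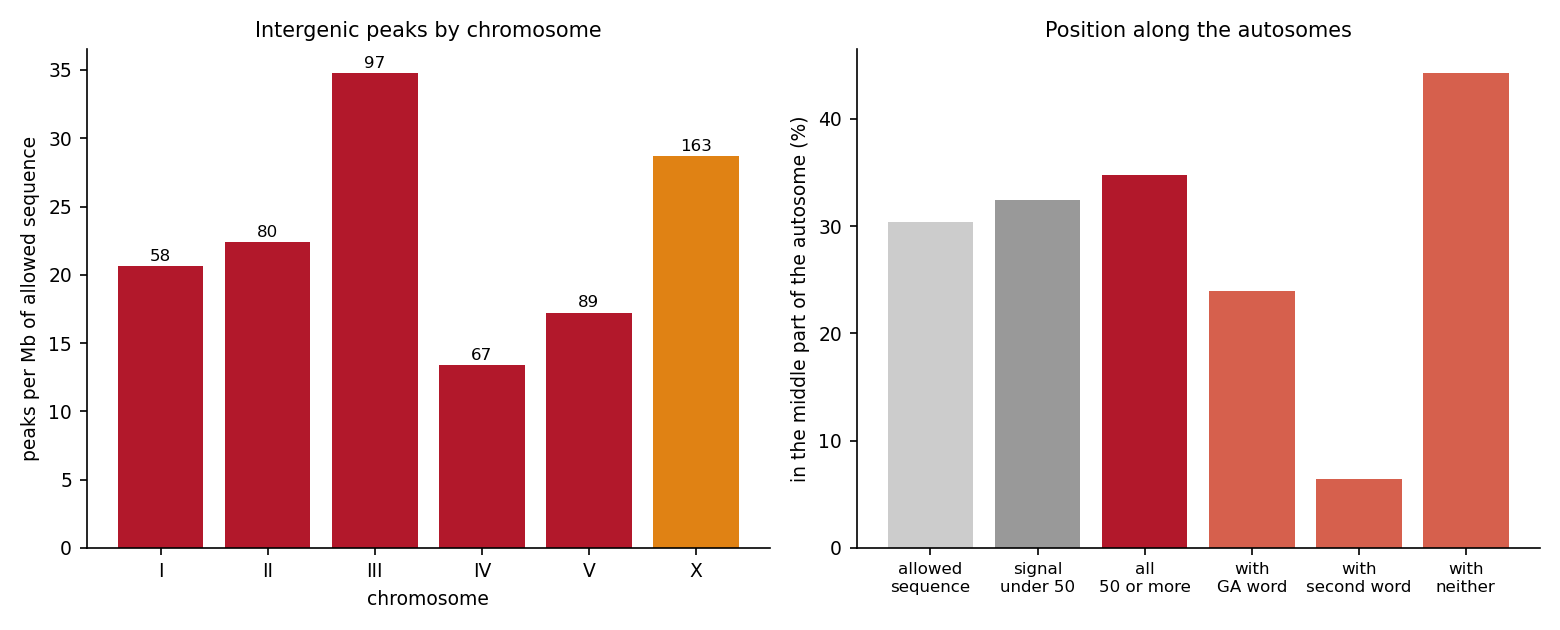
Left, intergenic peaks per Mb of sequence the place rule allows, by chromosome, with the number of peaks above each bar and X in orange. Right, percent lying in the middle of 3 equal parts of each autosome, for the allowed sequence, weaker candidates, all 391 peaks, and those with GAGAG (the GA word), with the second word CTGCGTC and with neither. The bar for CTGCGTC stands at 6.38% and that for neither word at 44.3%, on both sides of the 30.4% of the allowed sequence.

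Peaks with CTGCGTC were rare in the middle of the autosomes. Each autosome was cut into 3 equal parts, and the middle part held 136 of 391 peaks (34.8%), against 30.4% of the allowed sequence and 32.5% of weaker candidates. At a signal limit of 65 the share was 32.4%, still above that of the allowed sequence. At a limit of 100 it was 24.1%, below that of the allowed sequence. Over all 391 the middle part held 3 of the 47 peaks with CTGCGTC (6.38%) and 133 of the 344 without it (38.7%). With GAGAG it held 39 of 163 (23.9%), and with neither word 97 of 219 (44.3%). The word itself was less frequent there: 20.5% of the 1790 matches to CTGCGTC in allowed sequence and 16.7% of those to TCTGCGTCTC lay in the middle parts, while GAGAG was spread nearly like the sequence, at 32.5%. Among autosomal promoter peaks CTGCGTC was at 7.13% in the middle parts and 11.01% outside, and among gene body peaks at 2.32% and 6.10%, the same direction with a smaller ratio. The 3 peaks in the middle parts lay beside egl-9 (164), between mfb-1 (1596 bp away) and sup-17 (76.2), and between K04C2.2 (322 bp away) and T07E3.4 (56.0).

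Peaks of the middle and outer parts also differed in composition and signal. GAGAG lay at 28.7% of summits in the middle parts and 48.6% outside them, against 23.2% and 20.9% in the weaker candidates. The same shares were 31.6% and 36.3% at promoter peaks and 16.7% and 32.2% in intergenic peaks of X. Median GC was 41.6% in the middle and 45.5% outside, and median signal 66.7 and 71.8. Chromosomes differed as well: III had 45.4% of its peaks in the middle part, where 33.9% of its allowed sequence lies, and V had 25.8%, against 30.8%. The part of composition and signal in these shares was not tested.

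Some gaps between genes held several peaks. With summits less than 2000 bp apart counted together, 73 peaks (18.7%) fell into 33 groups, of which 27 had 2 peaks, 5 had 3 and 1 had 4. The group of 4 lay between lpin-1, which encodes the lipid phosphatase lipin, and letm-1, of the mitochondrial LETM1 family, at summits 13655562, 13656874, 13657554 and 13658794 of chromosome V. Its signals were 73.4, 67.5, 95.8 and 73.0, and the second and last were found in both replicates. A group of 3 lay between Y49A3A.4 and unc-39, a homeobox gene, with signals of 67.75, 51.8 and 76.3. Of these, 1 was found in both replicates. A stronger peak of the same gap (103.4, summit 14368938), found in both replicates, lay outside the group, 4136 bp from unc-39. The other groups of 3 lay between gei-4 and pll-1, W09D10.4 and tat-3, alh-3 and hrg-5, and W06H8.6 and K08B12.3. Other pairs were pieces of a single candidate in a replicate. The pair beside mak-1 (165 and 92.1, 209 bp apart) overlapped the same candidate of replicate 1, the pair beside sup-26 (156 and 74.4, 203 bp apart) the same one of replicate 2, and the pair between sam-10 and mrpl-20 (66.8 and 55.6, 200 bp apart) the same one in each replicate. The regions of these 3 pairs also overlap each other, so they need not be separate sites. The pair nearest to mdh-2, a malate dehydrogenase gene, had signals of 142 and 53.3 at summits 285 and 1277 bp from it. The smallest distance between 2 summits was 200 bp, so the windows of 50 bp on each side did not overlap, although wider windows and flanks of neighbouring peaks could.

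All 6 regions nearest to the signal limit lay between genes in tandem. Just inside were the peaks at 4369087 of chromosome V beside gmpr-1 (50.27), at 8101772 of chromosome I beside spr-4 (50.04) and at 9509979 of chromosome III beside vha-14, a vacuolar ATPase subunit gene (50.04). Just outside were those at 10235814 of chromosome V beside fubl-1 (49.98), at 3902819 of chromosome III beside mmcm-1 (49.98) and at 10398871 of chromosome I beside cup-2 (49.91). None of these 6 was in the thresholded list.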

How the data were processed

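Peak lists of 2 biological replicates of 1 group were used in build ce11. For each region the authors deposited a signal value, assigned by their peak caller, a -log10 q value and a summit, per the file headers and README files. The -log10 q given by the authors has a ceiling of 2.43 that all 391 peaks reach, so it was not used to order them. The aligner, the peak caller, and the threshold of the irreproducible discovery rate were not given in the sources used here. The candidate lists hold background regions by design, and signal is not scaled between lists. Pooled and single-replicate lists come from the same libraries. A control library entered the authors' peak calling and is not analysed here. The depth in reads is unknown.

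Coordinates were matched to the WBcel235 sequence (RefSeq) and to the annotation of Ensembl release 115. Summits were placed by the rule in the opening paragraph. On either strand, words were looked for up to 50 bp from the summit and in windows centred 300 bp to each side. The 14 words listed are those named in the results, and CTGCGTC with its longer form was added after the values were seen. The peaks, words and lists were chosen with earlier results of these data known, and signal chose the peaks, so shares are given with no p-value. Named peaks are the 20 of highest signal, up to 4 in each annotation class, those next to the limit, and groups under 2000 bp apart. Peaks beside other genes are named as examples chosen after their values were seen. Steps were tested on simulated data. Figures used matplotlib 3.10.9, and calculations pandas 2.3.3 with numpy 2.4.6 and scipy 1.17.1 under Python 3.11.15.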

Additional observations from a re-analysis of the deposited data

How the results depend on the processing

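No paired analysis was possible because both samples belong to 1 group and no groups were compared. The number of peaks (391) fell to 225 with a signal limit of 65 and to 79 with 100. It stayed within 1.5 times under other promoter windows (263 to 545), and was 398 to 439 when either replicate was left out. In that case the 3414 strongest candidates of the remaining replicate were used, down to signals of 28.6 in replicate 1 and 26.5 in replicate 2. The size of the list was thus held fixed, so a like number does not show that the same peaks were kept. With the limit at 65 and 100 the share found in both replicates was 68.4% and 96.2%, that in the thresholded list 100% in either case, median GC 46.5% in either case, the share in the middle parts 32.4% and 24.1%, and the median distance to a start 2082 and 2025 bp. With the limit at 100, 2.53% were repeated and 6.33% had an annotated gene at the summit. Promoter windows of 500 bp and 2000 bp upstream gave a median distance of 1433 and 2603 bp, which they set themselves, and 36.9% and 32.7% in the middle parts. The wider one gave a median GC of 43.6%. With the whole region outside genes and windows the distance was 2246 bp and the middle share 32.7%. With 1000 bp from small RNA genes the distance was 2083 bp. Leaving out either replicate gave distances of 2064 to 2086 bp, 1.51% to 2.28% repeated, a GC of 43.6%, 31.4% to 33.4% in the middle parts and 9.34% to 11.3% with an annotated gene. With 50% reciprocal overlap 35.0% were found in both replicates, and with any candidate of the replicate 91.1%. GC within 100 bp of the summit was 42.8%. GAGAG was at 28.4% within 25 bp and 54.0% within 100 bp, and CTGCGTC, an alternative added after seeing the data, at 6.91% and 16.4%, since longer windows hold more letters. The causes of the other changes were not tested. The lists carry no counts, so neither depth nor enrichment over the control can be read from them.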
